A study of Mus musculus with 16 samples.

Results

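Both mature arms of miR-126, miR-126-3p and miR-126-5p, were examined in whole mouse lung. They were chosen by name, as the array entries called mmu-miR-126 with no suffix or with the suffix 3p or 5p, and 2 of the 611 mouse miRNAs on the array met this rule. No entry without a suffix was present. The arrays were Agilent 1-colour arrays of total RNA, on which each arm was measured by 2 probes of 10 spots each. The data comprised 16 arrays on 2 slides.

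All mice were BALB/c, 8 to 12 weeks old, and all had received 1 mg Alhydrogel, an aluminium adjuvant, on day 0. In the PBS/PBS group (2 arrays) the adjuvant was given without allergen and the lungs were challenged with PBS. PBS/OVA mice (4 arrays) were also not sensitised but were challenged through the nose with 10 μg of ovalbumin (OVA, an egg white protein used as the allergen). OVA/OVA mice (6 arrays) had been sensitised with 50 μg of OVA and then challenged with OVA, which gives allergic airways disease (AAD). The OVA/OVA DEX group (4 arrays) was treated like OVA/OVA and also received dexamethasone, a synthetic glucocorticoid, at 3 mg/kg from day 11. Challenges ran from day 12 to day 15 and lungs were taken on day 16. The labels number the arrays of a group but do not tie them to animals, so p-values measure the spread between these arrays.

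MiR-126 is one of the best known endothelial miRNAs. Its precursor lies within an intron of Egfl7, a gene for a protein that endothelial cells secrete, and both arms are cut from the same hairpin. The 3p arm is known to restrain inhibitors of VEGF signalling such as Spred1, and the 5p arm, once called miR-126*, to restrain Dlk1 during endothelial repair. MiR-126 is also found in platelets and in blood stem cells. In whole lung RNA, fewer endothelial cells and less miR-126 per cell cannot be told apart.

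Of both arms, RefSeq (GRCm38.p6) gave a sequence for the 3p arm, under the name miR-126a-3p, at chr2:26591402-26591423 on the plus strand. No other of the 1679 mature miRNAs in that table had its seed (bases 2 to 8), and its hairpin lay inside Egfl7. The seed is in capitals below, as it is for 4 miRNAs whose levels over the 16 arrays followed an arm most closely and that recur in the results. In that table miR-30c-5p and miR-30a-5p share a seed with each other, also with miR-30e-5p and miR-384-5p. None of the seeds shown is that of miR-126a-3p. MiR-30b-5p, miR-23b-3p and miR-151-5p, named below, had no matching entry there, so their seeds were not compared. MiR-126-5p is named only.
miR-126a-3p: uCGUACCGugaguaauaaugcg
miR-30c-5p: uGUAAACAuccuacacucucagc
miR-30a-5p: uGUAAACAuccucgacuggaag
miR-23a-3p: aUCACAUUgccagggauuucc
miR-451a: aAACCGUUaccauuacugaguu

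Both arms were detected on all 16 arrays, and every spot of their probes was well above background. No spot on any array was saturated. For each probe and array, the signal before background subtraction was divided by the local background, and the median over spots was taken. This ratio was between 261 and 1698 for the 3p probes and between 4.04 and 98.5 for the 5p probes. Spots of 1 probe differed by a median coefficient of variation of 1.9% and 3.23% for the 3p probes and of 15.4% and 17.1% for the 5p probes. A single array value was therefore less precise for the 5p arm. Arrays differed in brightness before scaling, with 224 to 301 miRNAs detected. The summed signal of all miRNAs was 793227 and 940050 on the PBS/PBS arrays and 251350 to 733489 on the OVA/OVA arrays. PBS/OVA arrays ranged over 493063 to 718149 and OVA/OVA DEX arrays over 499733 to 638811, so the dimmest arrays were OVA/OVA arrays.

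Levels below are log2 signals, scaled so that the 75th percentile of the 206 miRNAs found on all arrays was equal between arrays. On this scale miR-126-3p was 15.34 and 15.29 on the PBS/PBS arrays. It was 15.46, 15.18, 15.32 and 15.40 on PBS/OVA replicates 1 to 4. In OVA/OVA the lowest array was 14.86, the median 15.11 and the highest 15.28. In OVA/OVA DEX it was 15.50, 15.42, 15.43 and 15.24. The OVA/OVA arrays lay at the low end of a narrow range. They did not overlap with PBS/PBS, but the highest OVA/OVA array reached above the lowest PBS/OVA array and the lowest OVA/OVA DEX array.

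MiR-126-5p, the other arm of the hairpin, spread more widely. It was 10.56 and 10.48 in PBS/PBS, and 10.68, 10.09, 10.59 and 10.74 in PBS/OVA, where replicate 2 stood below the others. OVA/OVA arrays ran from 9.64 to 10.23 with a median of 10.10. OVA/OVA DEX arrays were at 11.12, 10.82, 10.50 and 11.01. All 6 OVA/OVA arrays were below all OVA/OVA DEX and PBS/PBS arrays, and PBS/OVA replicate 2 fell inside the OVA/OVA range.

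**Figure D1:**
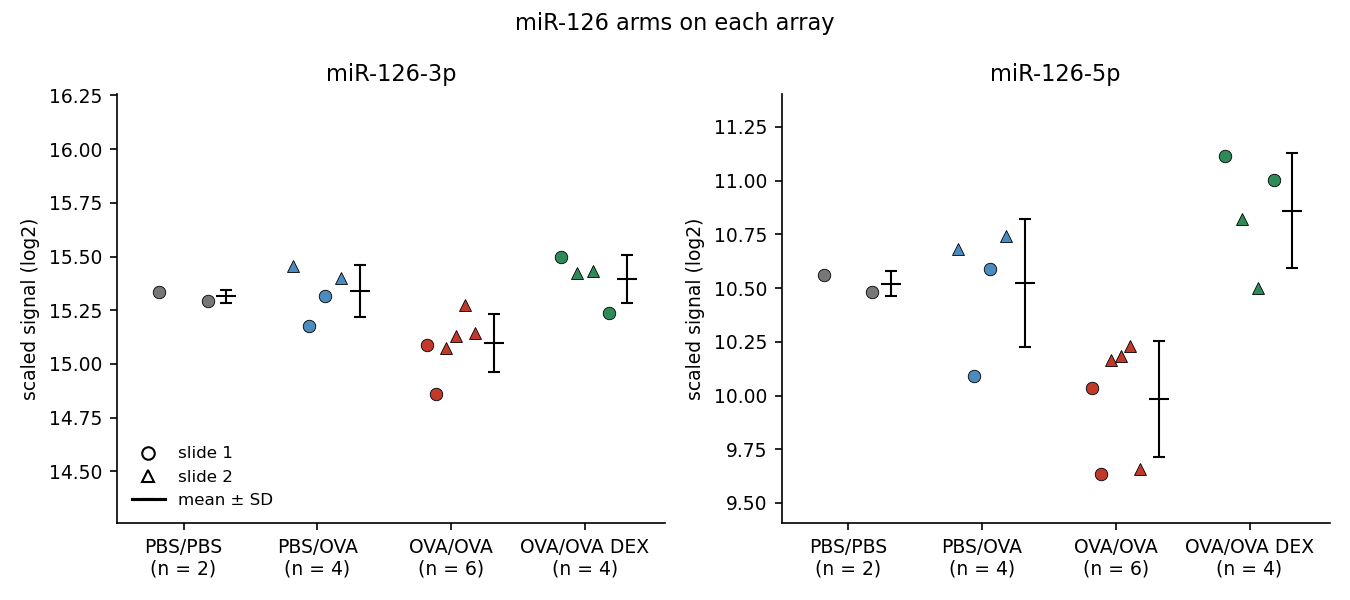
Scaled log2 signal (y axis, the same span of 2 units in both panels) of miR-126-3p and miR-126-5p on each of 16 arrays by group, with circles for slide 1 and triangles for slide 2. Bars give the group mean ± SD; the OVA/OVA mean is the lowest for both arms, and for miR-126-5p the OVA/OVA arrays run from 9.64 to 10.23 against 10.50 to 11.12 in OVA/OVA DEX.

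Both arms had the same order of group means. For miR-126-3p the means were 15.10 ± 0.14 in OVA/OVA (SD, n = 6), 15.31 ± 0.03 in PBS/PBS (n = 2), 15.34 ± 0.12 in PBS/OVA (n = 4) and 15.40 ± 0.11 in OVA/OVA DEX (n = 4). For miR-126-5p they were 9.98 ± 0.27, 10.52 ± 0.06, 10.53 ± 0.30 and 10.86 ± 0.27. Over all 4 groups at once, limma's F test gave an adjusted p of 0.0297 for miR-126-3p and 0.00517 for miR-126-5p, and 44% of the 266 miRNAs tested passed it. With this scaling and all 16 arrays in the fit, no pair of neighbours in this order passed in either arm, while OVA/OVA and PBS/PBS did under some alternatives given below. A miRNA is said to pass a comparison where its adjusted p in limma was under 0.05. The adjustment ran over 266 miRNAs, those that 1 group or more showed on each of its arrays.

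With dexamethasone as the question, both arms were lower in OVA/OVA than in OVA/OVA DEX. MiR-126-3p fell by 0.30 on the log2 scale (SE 0.0825, 95% confidence interval -0.48 to -0.12), which is 1.23-fold, with a limma adjusted p of 0.0085. MiR-126-5p fell by 0.88 (SE 0.166, interval -1.23 to -0.52), or 1.84-fold, with a limma adjusted p of 0.00096. In this comparison 53.4% of the miRNAs passed, 86 lower (32.3%) and 56 higher (21.1%) in OVA/OVA. Passing was thus common, and so was an absence of overlap, which held for 31.2% of the miRNAs and for the 5p arm but not the 3p arm. By size, 5.26% of miRNAs had a difference below that of miR-126-5p and 27.8% one below that of miR-126-3p, with a median over all miRNAs of -0.09. Both falls passed whichever 1 array was left out. On slide 1 alone miR-126-5p differed by -1.22 (limma adjusted p = 0.0167) and on slide 2 alone by -0.60 (limma adjusted p = 0.0675). MiR-126-3p differed by -0.39 and -0.27 (limma adjusted p = 0.105 and 0.058). A test of whether the slides differed in this effect gave an adjusted p of 0.815 for miR-126-5p and 0.978 for miR-126-3p. With slide as a block the differences were -0.89 and -0.33, and both passed.

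Allergen sensitisation, with the challenge the same in both groups, was addressed by OVA/OVA against PBS/OVA. MiR-126-3p fell by 0.24 (SE 0.0825, interval -0.42 to -0.06; limma adjusted p = 0.0407) and miR-126-5p fell by 0.54 (SE 0.166, interval -0.90 to -0.18; limma adjusted p = 0.0277). These are 1.18-fold and 1.45-fold. Of all miRNAs 31.6% passed, 45 lower (16.9%) and 39 higher (14.7%). The arrays overlapped for both arms, and 19.9% of miRNAs had no overlap. Without PBS/OVA replicate 1, 3 or 4 or OVA/OVA replicate 2 or 6, miR-126-5p differed by -0.49, -0.52, -0.47, -0.47 and -0.48 and no longer passed (limma adjusted p = 0.0869, 0.0730, 0.0809, 0.0569 and 0.0548). MiR-126-3p did not pass without PBS/PBS replicate 1 or 2, PBS/OVA replicate 1, 3 or 4, OVA/OVA replicate 1, 2, 3 or 6, or OVA/OVA DEX replicate 2 or 3. Its difference then ran from -0.25 to -0.20, and its highest limma adjusted p was 0.127, without PBS/OVA replicate 1. On slide 1 alone the 3p and 5p arms differed by -0.27 and -0.50, and on slide 2 alone by -0.27 and -0.65, none of which passed (limma adjusted p = 0.0972 to 0.273). With slide as a block they were -0.27 and -0.55 and passed.

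OVA/OVA against PBS/PBS gave differences of like size that did not pass. MiR-126-3p was -0.22 (SE 0.104, interval -0.44 to 0.01; limma adjusted p = 0.131) and miR-126-5p was -0.54 (SE 0.21, interval -0.99 to -0.08; limma adjusted p = 0.0715). In this comparison 25.6% of miRNAs passed, 33 lower (12.4%) and 35 higher (13.2%), and 51.5% had no overlap between the 6 and the 2 arrays, as both arms did. With slide as a block miR-126-3p was -0.32 and passed (limma adjusted p = 0.0326), and miR-126-5p was -0.59 and did not (0.0732). PBS/PBS arrays were all on slide 1, where the arms differed by -0.34 and -0.68. Without PBS/OVA replicate 2, which is in neither group but enters the shared estimate of spread, miR-126-5p passed at -0.54 (limma adjusted p = 0.0394).

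Challenge with OVA in mice that had not been sensitised left both arms near the PBS/PBS level, with the limits of the small PBS/PBS group. PBS/OVA minus PBS/PBS was 0.02 for miR-126-3p (interval -0.21 to 0.26) and 0.00 for miR-126-5p (interval -0.48 to 0.48). Neither passed (limma adjusted p = 0.997 for both), and 0.376% of all miRNAs did.

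Dexamethasone-treated mice were also set against both groups without sensitisation. OVA/OVA DEX minus PBS/PBS was 0.08 for miR-126-3p (interval -0.16 to 0.32) and 0.34 for miR-126-5p (interval -0.14 to 0.82). OVA/OVA DEX minus PBS/OVA was 0.06 (interval -0.14 to 0.25) and 0.34 (interval -0.06 to 0.73). None of these 4 differences passed (limma adjusted p = 0.304 to 0.842). Against PBS/PBS, 0% of miRNAs passed in limma, with 19 at an unadjusted p under 0.05. An exact Mann-Whitney test of 4 against 2 arrays cannot go below p = 0.133, so its count of 0 was fixed by the design. Against PBS/OVA, 2.26% passed. The 5p difference from PBS/OVA was 0.72 on slide 1 and -0.05 on slide 2, and a test of the difference between slides gave a limma adjusted p of 0.863. These comparisons share arrays: OVA/OVA enters 3 of the 6, and OVA/OVA DEX also enters 3.

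**Figure D2:**
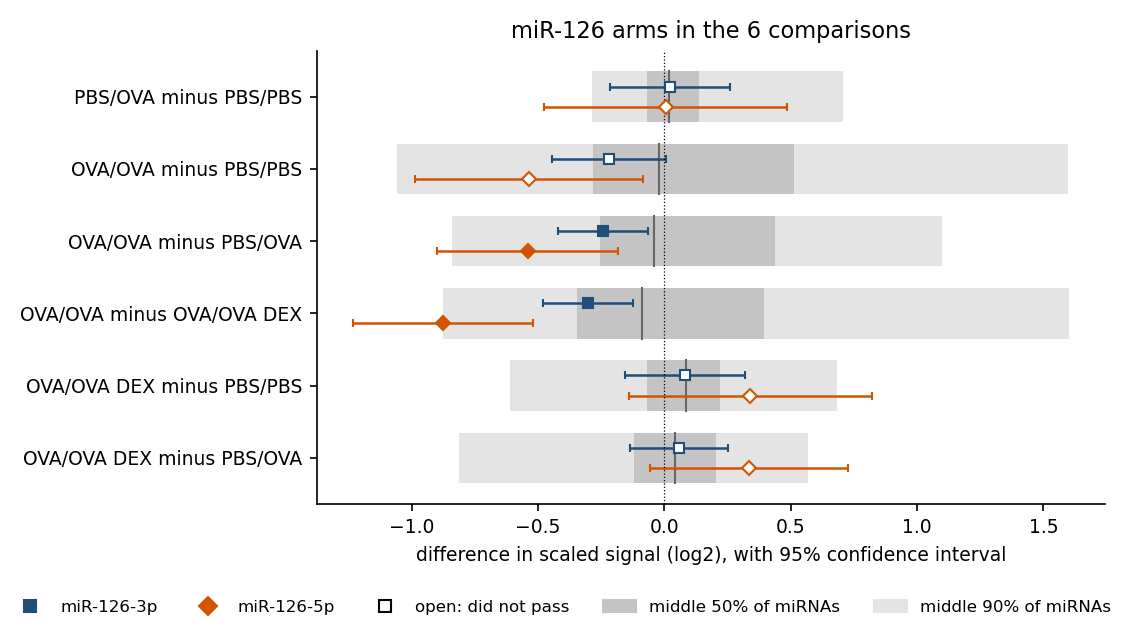
Difference between groups in scaled log2 signal (x axis) for miR-126-3p (squares) and miR-126-5p (diamonds) in the 6 comparisons, with 95% confidence intervals from limma over 16 arrays; filled symbols passed. Grey bars span the middle 50% and 90% of the 266 miRNAs tested and the line their median; miR-126-5p is at the lower edge of the middle 90% in OVA/OVA minus OVA/OVA DEX.

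The differences of the arms depended on the scaling. Against PBS/PBS, the median difference of all 266 miRNAs was -0.02 here, -0.56 with a percentile taken over every miRNA, -1.11 without scaling, -0.64 with control spots and -0.19 after quantile normalization. MiR-126-5p then differed by -1.07, -1.63, -1.15 and -0.62, and miR-126-3p by -0.75, -1.32, -0.84 and -0.65, all of which passed. A scaling that multiplies a whole array by a factor moves the arms and the median together, so their distance from it is then fixed by construction, at -0.20 for miR-126-3p and -0.52 for miR-126-5p here. After quantile normalization, which changes miRNAs unequally, these distances were -0.46 and -0.43, and after normexp background correction -0.86 and -1.03. For OVA/OVA minus OVA/OVA DEX the medians under the same 4 scalings were -0.31, -0.38, -0.59 and -0.15. Relative to the median, miR-126-3p and miR-126-5p there were -0.21 and -0.79 here, -0.51 and -0.76 after quantile normalization and -0.48 and -0.93 after normexp. With control spots the calls were more one-sided: 132 lower and 19 higher in OVA/OVA minus OVA/OVA DEX, 129 and 6 against PBS/OVA, and 89 and 9 against PBS/PBS. Against PBS/PBS the split was 125 and 12 with a percentile over every miRNA, 156 and 3 without scaling and 31 and 14 after quantile normalization. In OVA/OVA minus OVA/OVA DEX it was 80 and 27 with a percentile over every miRNA and 10 and 13 without scaling, and against PBS/OVA 2 and 0 without scaling and 53 and 30 with marker miRNAs left out of the percentile.

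**Figure D3:**
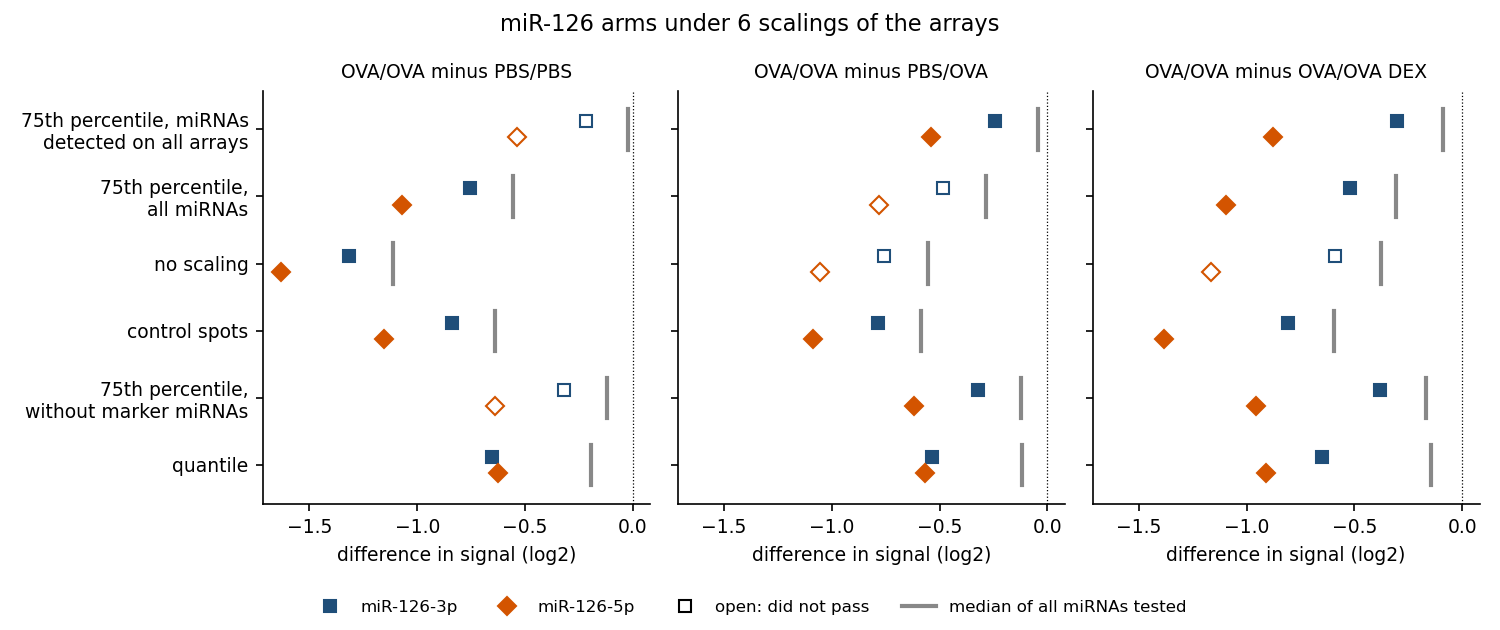
Difference in log2 signal (x axis) of miR-126-3p (squares) and miR-126-5p (diamonds) in 3 comparisons under 6 ways of scaling the arrays, with the median of the miRNAs tested as a grey line; filled symbols passed. The median moves from -0.02 to -1.11 in OVA/OVA minus PBS/PBS, and apart from quantile normalization the arms move with it by construction.

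The ratio of the arms within an array does not depend on scaling by a factor per array. Probes differ in how they bind, so the ratio is compared between groups and is not a ratio of molecules. As log2 of 3p over 5p signal it was 4.78 and 4.81 in PBS/PBS, and 4.77, 5.09, 4.73 and 4.66 in PBS/OVA. In OVA/OVA it ran from 4.91 to 5.49 with a median of 5.05. In OVA/OVA DEX it was 4.38, 4.60, 4.93 and 4.23. OVA/OVA arrays were highest as a group, and OVA/OVA DEX replicate 3 was inside their range.

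The ratio in OVA/OVA exceeded that in OVA/OVA DEX by 0.57 on the log2 scale, or 1.49-fold, so the 5p arm differed more than the 3p arm. The exact two-sided permutation test gave p = 0.019 (n = 6 and 4) and 0.114 after adjustment over the 6 comparisons. In limma over the 26 miRNAs with both arms detected on all arrays, chosen as a test after the data were seen, the difference had an SE of 0.144 and an adjusted p of 0.0088. There 42.3% of the 26 pairs passed, 7 with a higher and 4 with a lower 3p over 5p ratio in OVA/OVA, and miR-126 was number 7 by size. On slide 1 alone the difference was 0.83 and on slide 2 alone 0.33 (exact permutation p = 0.333, the lowest that 2 against 2 arrays can give, and 0.267). From the brighter probe of each arm it was 0.60 and from the dimmer probe 0.32.

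The adjusted permutation p of the ratio was thus not under 0.05 in OVA/OVA minus OVA/OVA DEX. In the other comparisons neither that test nor limma over the pairs gave an adjusted p under 0.05. OVA/OVA minus PBS/OVA was 0.30 (exact permutation p = 0.0571, adjusted p = 0.143) and OVA/OVA minus PBS/PBS was 0.32 (exact permutation p = 0.0714, the lowest possible for 6 against 2, adjusted p = 0.143). In limma over the 26 pairs 7.69% passed in each of these, not including miR-126 (adjusted p = 0.185 and 0.224). OVA/OVA DEX minus PBS/PBS was -0.26 and OVA/OVA DEX minus PBS/OVA was -0.28 (exact permutation p = 0.4 and 0.2), and PBS/OVA minus PBS/PBS was 0.02 (exact permutation p = 0.8). In these last 3 comparisons 0% of pairs passed in limma. The ratio was higher on dimmer arrays, with a Pearson r of -0.48 and a Spearman rho of -0.40 against the log2 summed signal over 16 arrays, and -0.48 and -0.26 over the 6 OVA/OVA arrays. With that brightness as a covariate the ratio in OVA/OVA minus OVA/OVA DEX was 0.50, with a limma adjusted p of 0.0246 over the pairs.

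**Figure D4:**
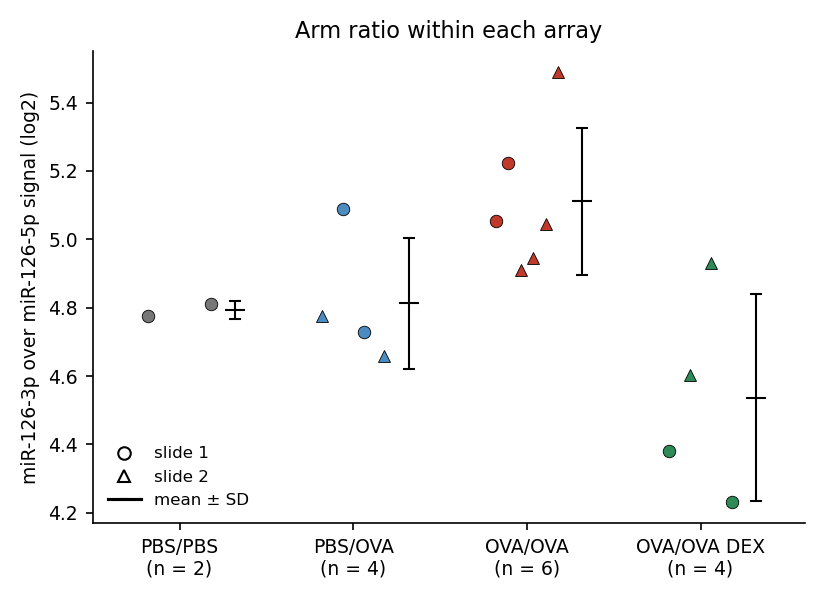
Log2 ratio of miR-126-3p to miR-126-5p signal (y axis) on each of 16 arrays by group, with circles for slide 1, triangles for slide 2 and the group mean ± SD. OVA/OVA arrays run from 4.91 to 5.49 and OVA/OVA DEX arrays from 4.23 to 4.93, overlapping in 1 array of the latter.

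Among the 205 other miRNAs detected on all arrays, the level of miR-126-3p over the 16 arrays was followed most closely by miR-151-5p (Pearson r = 0.96), miR-30c-5p (0.91), miR-23b-3p (0.89), miR-30a-5p (0.88) and miR-30a-3p (0.88). The 5 closest to miR-126-5p were miR-23a-3p (0.97), miR-30b-5p (0.95), miR-26a-5p (0.95), miR-29c-5p (0.94) and miR-451 (0.93). No miRNA was in both sets of 5. The arms correlated with each other at 0.82, and at 0.53 after group means were taken out, and they ranked 26 and 31 among the 205 miRNAs in likeness to each other. The median r of all candidates was 0.40 for the 3p arm and 0.34 for the 5p arm, and all points share groups, slides and array brightness. Without scaling it was 0.95 and 0.87, and 2 and 3 of the 5 named miRNAs were again among the closest 5.

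These miRNAs were picked for likeness over the same arrays, so their differences are given as a description. MiR-23a-3p, cut from the same transcript as miR-24 and miR-27a, differed by -0.59 in OVA/OVA minus OVA/OVA DEX (limma adjusted p = 0.000722) and by -0.29 in OVA/OVA minus PBS/OVA (limma adjusted p = 0.049). MiR-30c-5p differed by -0.86 and -0.46 and passed in both. MiR-151-5p differed by -0.35 and -0.32 and also passed in both. Others among the closest did not pass in OVA/OVA minus PBS/OVA: miR-30a-5p, miR-30a-3p, miR-26a-5p and miR-451 (limma adjusted p = 0.128, 0.197, 0.0582 and 0.110). Of all miRNAs, 32.3% fell in OVA/OVA minus OVA/OVA DEX and 16.9% in OVA/OVA minus PBS/OVA.

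The opposite pattern was led, for miR-126-3p, by miR-155-5p (r = -0.85), miR-378-5p (-0.84) and miR-378-3p (-0.83). For miR-126-5p it was led by miR-21-5p (-0.88), miR-130b-3p (-0.88) and miR-155-5p (-0.86). The opposition depended on the scaling. Without scaling these r were -0.23, 0.57 and 0.13 for miR-126-3p, and -0.21, -0.06 and -0.41 for miR-126-5p. MiR-155-5p is induced in activated lymphocytes and macrophages. Its group means were 6.70 in PBS/PBS, 6.82 in PBS/OVA, 8.69 in OVA/OVA and 6.09 in OVA/OVA DEX. MiR-21-5p, raised in many inflamed tissues, had means of 14.74, 15.30, 16.22 and 14.77. Both miRNAs were highest where both arms were lowest, which follows from their being picked as least like an arm over the same arrays.

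Of a list of 19 miRNAs known from blood vessels or their growth, all 19 were tested. In OVA/OVA minus OVA/OVA DEX 8 fell and 3 rose, where 32.3% of all miRNAs fell and 21.1% rose, and the median over the list was 0.00 against -0.09 over all miRNAs. MiR-23a-3p (-0.59), miR-10a-5p (-0.51), miR-24-3p (-0.49) and miR-10b-5p (-0.48) fell, the miR-10 miRNAs being encoded in Hox clusters. MiR-503-5p, miR-132-3p and miR-296-5p rose, by 1.15, 0.66 and 0.59. Of these, miR-132-3p was detected on only 4 of 6 OVA/OVA and 2 of 4 OVA/OVA DEX arrays, so its rise rests partly on undetected values. In OVA/OVA minus PBS/OVA 6 fell and 4 rose, beside 16.9% and 14.7% of all miRNAs. The largest falls were those of miR-24-3p, by 0.37, and miR-218-5p, encoded within Slit genes, by 0.34. All 4 rises were larger: miR-296-5p, miR-139-5p, miR-503-5p and miR-92a-3p rose by 0.70, 0.62, 0.59 and 0.41. Against PBS/PBS 3 fell and 2 rose (miR-139-5p and miR-296-5p), beside 12.4% and 13.2% of all miRNAs. OVA/OVA DEX minus PBS/OVA had 1 member that rose, miR-139-5p, by 0.56, beside 0.376% of all miRNAs. No member passed in the other comparisons.

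Red cell markers were read on the same arrays. Of 3 red cell miRNAs, miR-451 and miR-144-3p were matched by name, and miR-486-5p was not matched and is not analysed here. Both fell in OVA/OVA minus OVA/OVA DEX, by 1.04 and 1.06 (limma adjusted p = 0.000922 and 0.00101), as 32.3% of all miRNAs did. Against PBS/OVA, where both arms passed, they were -0.42 and -0.38 and did not pass (limma adjusted p = 0.110 and 0.169). Their summed level ran from 15.17 to 16.10 in OVA/OVA, against 16.61 to 17.05 under dexamethasone. PBS/OVA arrays spanned 15.55 to 16.41 and PBS/PBS arrays 16.15 to 16.28. OVA/OVA and OVA/OVA DEX did not overlap in it, as for miR-126-5p. Taken singly, 31.2% of all miRNAs tested had no overlap between these groups.

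Of 5 haematopoietic miRNAs, 4 rose in OVA/OVA minus OVA/OVA DEX, 5 against PBS/OVA and 3 against PBS/PBS, where 21.1%, 14.7% and 13.2% of all miRNAs rose. Their summed level ran from 14.98 to 15.55 in OVA/OVA, against 14.15 to 14.71 under dexamethasone. PBS/OVA arrays spanned 13.94 to 14.53 and PBS/PBS arrays 14.32 to 14.49. OVA/OVA was thus above all other groups on every array. Taken singly, 31.2% of all miRNAs tested had no overlap between OVA/OVA and OVA/OVA DEX. Against PBS/OVA and PBS/PBS this share was 19.9% and 51.5%. Whether red cells or leukocytes have a part in the differences of miR-126 was not tested.

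Both smooth muscle miRNAs, miR-143-3p and miR-145-5p, fell in OVA/OVA minus OVA/OVA DEX by 0.31 and 0.45, as 32.3% of all miRNAs did, and did not pass in the other comparisons. Of 5 epithelial miRNAs of the miR-200 family, miR-200c-3p rose in that comparison by 0.25 and miR-200a-3p fell by 0.27. There 21.1% of all miRNAs rose and 32.3% fell. MiR-200c-3p also rose against PBS/OVA by 0.24 and against PBS/PBS by 0.36, where 14.7% and 13.2% of all miRNAs rose. The summed level of the list stayed between 13.06 and 13.35 over all arrays.

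Of 3 fibroblast miRNAs, miR-199a-3p fell by 0.27 and miR-199a-5p by 0.32 in OVA/OVA minus OVA/OVA DEX, and miR-199a-3p fell by 0.25 against PBS/OVA. In these comparisons 32.3% and 16.9% of all miRNAs fell. Of 3 miRNAs of ciliated cells, miR-34b-5p fell by 0.28 and miR-34c-5p by 0.36 in OVA/OVA minus OVA/OVA DEX. MiR-449a-5p rose there by 2.04, where 21.1% of all miRNAs rose. Against PBS/PBS miR-34b-5p fell by 0.35 and miR-34c-5p by 0.34, where 12.4% of all miRNAs fell. MiR-449a-5p fell by 1.59 in OVA/OVA DEX minus PBS/OVA, where 1.88% of all miRNAs fell. Of 3 striated muscle miRNAs, miR-1a-3p and miR-133a-3p were detected on all arrays and miR-206-3p on 0. MiR-133a-3p fell by 0.88 in OVA/OVA minus OVA/OVA DEX, by 0.84 against PBS/OVA and by 1.13 against PBS/PBS. In these comparisons 32.3%, 16.9% and 12.4% of all miRNAs fell. The summed level of the list was 8.97 to 10.83 in OVA/OVA and 10.40 to 11.22 elsewhere. The neuronal miRNAs miR-124-3p and miR-9-5p were detected on 0 of 16 arrays and the liver miRNA miR-122-5p on 4, while those of epithelium and smooth muscle were detected on all 16.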

How the data were processed

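The authors hybridised total RNA of whole lungs (RNA integrity number of 8 or more) to mouse miRNA microarrays of release 12.0. The authors deposited the intensity of each spot from Agilent Feature Extraction 10.7.3.1, background-subtracted and not scaled between arrays, and a table of log2 values, which was used as an alternative only because its shift per array is not described. The miRNA names are those of the array.

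Outlying spots were dropped, spots averaged, and the 2 probes of an arm summed. Arrays were divided by the 75th percentile of 206 miRNAs found on every array, signals under 1.71 (the median over arrays of the lowest detected signal) were set to it, and values were log2-transformed. Group means came from 1 fit of the 16 arrays in limma 3.58.1 (R 4.3.3), with Benjamini-Hochberg adjustment over 266 miRNAs. Arm ratios were compared by exact permutation tests (scipy 1.17.1, Python 3.11.15), adjusted over 6 comparisons. The number of arrays limits the precision. Replicate numbers did not pair arrays across groups: same-numbered arrays correlated, in their deviations from group means, from -0.78 to 0.41 over 18 pairs. The fit was also run on simulated data with independent noise. Those data held no differences in brightness or slide, so the effects of these were not tested there.

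The miRNAs named are both arms, the 5 most and 3 least like each by Pearson correlation, and members of the vascular and cell type lists. From the lists, up to 4 that passed in each direction of a comparison are given by size. Members, lists and tests were chosen with earlier results of these data known. Alternatives comprised other scalings, background correction, summaries of spots and probes, detection filters, floors, slide, replicate number or brightness in the fit, other tests and thresholds, the deposited values, and leaving out each array in turn. The labels and methods differ on whether unsensitised controls were challenged with PBS, and the labels were followed.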

Additional observations from a re-analysis of the deposited data

How the results depend on the processing

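The fall of both arms in OVA/OVA minus OVA/OVA DEX kept its direction under every alternative run. It no longer passed without scaling (miR-126-3p -0.59, miR-126-5p -1.17), on slide 2 alone (-0.27 and -0.60), for the 3p arm on slide 1 alone (-0.39), or where a 2-fold change was also required (-0.30 and -0.88). With 1 array left out in turn it was -0.35 to -0.25 for the 3p and -0.996 to -0.79 for the 5p arm.

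In OVA/OVA minus PBS/OVA both arms kept their direction and no longer passed with a percentile over every miRNA (miR-126-3p -0.48, miR-126-5p -0.78), without scaling (-0.76 and -1.06), on slide 1 (-0.27 and -0.50) or slide 2 (-0.27 and -0.65), and with array brightness as a covariate (-0.23 and -0.43). The values -0.24 and -0.54 stood without a detection filter, under the adjusted exact Mann-Whitney test, the kind of test the methods name, and with a 2-fold change required, and then passed for neither arm. MiR-126-3p also did not pass with the mean over probes (-0.25), the deposited values (-0.25) or only the compared groups in the fit (-0.24). With 1 array left out the arms were -0.30 to -0.20 and -0.69 to -0.47.

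In OVA/OVA minus PBS/PBS both arms passed with a percentile over every miRNA (miR-126-3p -0.75, miR-126-5p -1.07), without scaling (-1.32 and -1.63), with control spots (-0.84 and -1.15), normexp (-0.31 and -0.48) and quantile normalization (-0.65 and -0.62), and the 3p arm with slide as a block (-0.32). With 1 array left out they were -0.25 to -0.17 and -0.59 to -0.47.

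Differences near 0 that never passed changed sign. PBS/OVA minus PBS/PBS turned negative with a percentile over every miRNA (miR-126-3p -0.27, miR-126-5p -0.29), without scaling (-0.56 and -0.58), with control spots (-0.049 and -0.068), normexp (-0.016 and -0.0019), the mean over probes (-0.056 and -0.025), quantile normalization (-0.12 and -0.054), slide as a block (-0.049 and -0.036) and on slide 1 (-0.066 and -0.18). The 5p arm did so also without marker miRNAs in the scaling (-0.017) and from its brighter probe (-0.013). With 1 array left out the arms were -0.016 to 0.077 and -0.067 to 0.15. OVA/OVA DEX minus PBS/PBS turned for miR-126-3p with a percentile over every miRNA (-0.23), without scaling (-0.72) and with control spots (-0.028), and for miR-126-5p without scaling (-0.47). OVA/OVA DEX minus PBS/OVA turned for miR-126-3p without scaling (-0.17) and on slide 2 (-0.00085), and for miR-126-5p on slide 2 (-0.051).

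The arm ratio in OVA/OVA minus OVA/OVA DEX passed in limma over the 26 pairs (0.57), a test chosen after seeing the data, as were the same test with slide as a block (0.56) or brightness as a covariate (0.50), which also passed. It was 0.47 to 0.71 with 1 array left out. In PBS/OVA minus PBS/PBS it turned negative with normexp (-0.014), the mean over probes (-0.031), the dimmer probes (-0.095, also tried after seeing the data), slide as a block (-0.013) and brightness as a covariate (-0.080), and was -0.073 to 0.071 with 1 array left out. In OVA/OVA DEX minus PBS/OVA it was 0.050 on slide 2.

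With the replicate number as a block the arms were -0.36 and -0.86 in OVA/OVA minus OVA/OVA DEX and -0.30 and -0.52 in OVA/OVA minus PBS/OVA, and passed. In PBS/OVA minus PBS/PBS the block gave -0.063 for miR-126-5p, and the arm ratio in OVA/OVA minus OVA/OVA DEX was 0.50 and passed in limma. It changed no other call of the arms, and 139 miRNAs passed with it in OVA/OVA minus OVA/OVA DEX, 77 in OVA/OVA minus PBS/OVA and 52 in OVA/OVA minus PBS/PBS. The numbers are not known to pair arrays.

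The number of miRNAs that passed also moved with the processing. It was 142 in OVA/OVA minus OVA/OVA DEX and 23 to 156 under the alternatives. In OVA/OVA minus PBS/OVA it was 84 and 0 to 135, and in OVA/OVA minus PBS/PBS 68 and 9 to 166. The 9 came from the deposited values, where only 39 miRNAs were matched by name and value, so it is not comparable with counts over 266. An exact Mann-Whitney test of 6 against 2 arrays cannot go below p = 0.0714, so its count of 0 there was fixed by the design. It was 48 in OVA/OVA minus PBS/OVA without PBS/OVA replicate 3, and 18 and 12 in OVA/OVA minus PBS/PBS without PBS/PBS replicate 1 and 2. It was 6 and 0 to 10 in OVA/OVA DEX minus PBS/OVA, 0 and 0 to 4 in OVA/OVA DEX minus PBS/PBS, and 1 and 0 to 3 in PBS/OVA minus PBS/PBS. With normexp the median of all miRNAs in OVA/OVA minus PBS/PBS was 0.55, with 21 lower and 145 higher. The cause of these changes was not tested. Signal over background limits the 5p arm more than the 3p arm, and 2 PBS/PBS arrays, both on slide 1, limit all comparisons with that group.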

Other observations

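Each arm was read by 2 probes, and these did not move to the same extent. The brighter minus the dimmer probe of miR-126-3p was 0.51 to 0.64 on the log2 scale over the 16 arrays, with its highest value on OVA/OVA DEX replicate 4. For miR-126-5p the same difference was 2.19 to 2.98 over the OVA/OVA arrays, where replicate 6 was lowest and replicate 5 highest, and 2.81 to 2.97 in OVA/OVA DEX. Between OVA/OVA and OVA/OVA DEX the brighter 5p probe alone gave -0.92 (limma adjusted p = 0.00099) and the dimmer 5p probe alone -0.60 (limma adjusted p = 0.0039). The corresponding values of the 3p probes were -0.32 (limma adjusted p = 0.0067) and -0.28 (limma adjusted p = 0.0146).

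Before scaling, the signal of miR-126-5p was 387 to 1627 in OVA/OVA, 1202 to 2155 in OVA/OVA DEX, 1089 to 2040 in PBS/OVA and 2320 to 2662 in PBS/PBS. Between slides, with groups in the fit, slide 2 was higher than slide 1 by 0.14 for miR-126-3p and by 0.08 for miR-126-5p (limma adjusted p = 0.2 and 0.812).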
